A study of Paxillus involutus ATCC 200175 with 12 samples.

Results

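A group of 155 features of the ectomycorrhizal fungus Paxillus involutus had lower transcript levels when glucose was supplied, whether or not ammonium was present. They were chosen by their measured values, out of 12214 features on the array. A feature belonged to the group when its mean over all arrays was at least 6, when its group mean was at least 0.8 lower with glucose than without it at both ammonium levels, and when the glucose groups with and without ammonium differed by less than 0.4. All values are on the log2 scale of the deposited RMA values, where a difference of 1 is a 2-fold difference. The features carry running numbers, no gene names come with them, and 0 of the 12214 identifiers matched the 18033 genes of the reference table of this fungus, so no function is given to any of them.

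Mycelium of strain ATCC 200175 was grown in the absence of other organisms on glass beads, first on a minimal medium, and was then deprived of nitrogen. All 4 groups afterwards received a hot-water extract of maize compost that had been filtered and freed of small compounds. The groups were OM+N+G (extract with ammonium and glucose), OM+G (extract with glucose), OM+N (extract with ammonium) and OM (extract alone), with 3 arrays each. How much glucose or ammonium was added is not given here. The 3 replicates per group are taken to be separate cultures, as the design text describes. All 12 arrays were subarrays of 1 slide, hybridised with Cy3-labelled cDNA. Subarrays 1 to 6 carried all samples without glucose, and subarrays 7 to 12 all samples that received it, so glucose and the position on the slide cannot be told apart. The same holds for ammonium. OM was on subarrays 1 to 3, OM+N on 4 to 6, OM+G on 7 to 9 and OM+N+G on 10 to 12. A feature lowered by glucose on these arrays is one that took a smaller share of the signal. Less of one RNA and more of the others cannot be told apart, because RMA values are relative to the rest of the array, and fewer cells of a type and less RNA per cell cannot be told apart in such bulk samples either.

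Paxillus involutus forms a symbiosis with tree roots, in which the tree supplies sugars and the fungus supplies nitrogen and other nutrients taken from the soil. It can also attack plant litter by oxidation, with chemistry that resembles that of brown-rot fungi. In many fungi, yeasts among them, glucose turns down genes for the use of other carbon sources, a response called carbon catabolite repression. Whether the features described here take part in either process was not tested.

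The condition on the fall without ammonium decided who belonged to the group. With a mean of at least 6, 156 features were at least 0.8 lower in OM+G than in OM, and 614 were at least 0.8 lower in OM+N+G than in OM+N. The 155 members were the features that met both conditions. The condition on ammonium removed none of them: the member with the largest difference between OM+N+G and OM+G, paxillus_6686, had 0.25 in absolute value. Nor did the minimum level remove any, since the dimmest member, again paxillus_6686, had a mean of 8.26. The random-sequence control of the arrays lay between 3.66 and 3.80. At the threshold of the fall without ammonium, paxillus_12969 was just inside with -0.801, and paxillus_4709 just outside with -0.7998. At the threshold of the fall with ammonium the nearest member was paxillus_12170 with -0.83. The one feature that met all other conditions and missed that one was paxillus_13506, with -0.36. Of the members, 154 were summarised from 10 probes.

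The members were lower in every array with glucose than in every array without it of the same ammonium level. This held for all 155 members in both comparisons and is fixed in large part by their choice, so it is given as a description. How many of all features were separated in this way was not counted, so the count does not set the members apart. By limma, 35.6% of all features were called lower in OM+G than in OM, and 39.8% in OM+N+G than in OM+N. The median member differed by -0.85 between OM+G and OM, a 1.80-fold lower value, and the range was -1.06 to -0.80. Between OM+N+G and OM+N the median was -1.04, a 2.06-fold lower value, with a range of -1.32 to -0.83. The differences were thus narrow in size. A fall of at least 1 was reached by 2 members in OM+G against OM and by 98 members in OM+N+G against OM+N. Among all 11499 features with a mean of 6 or more, the largest fall in each comparison was that of a member, while rises went further: 131 features were at least 1 higher in OM+G than in OM, and the highest lay at 2.37.

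**Figure D1:**
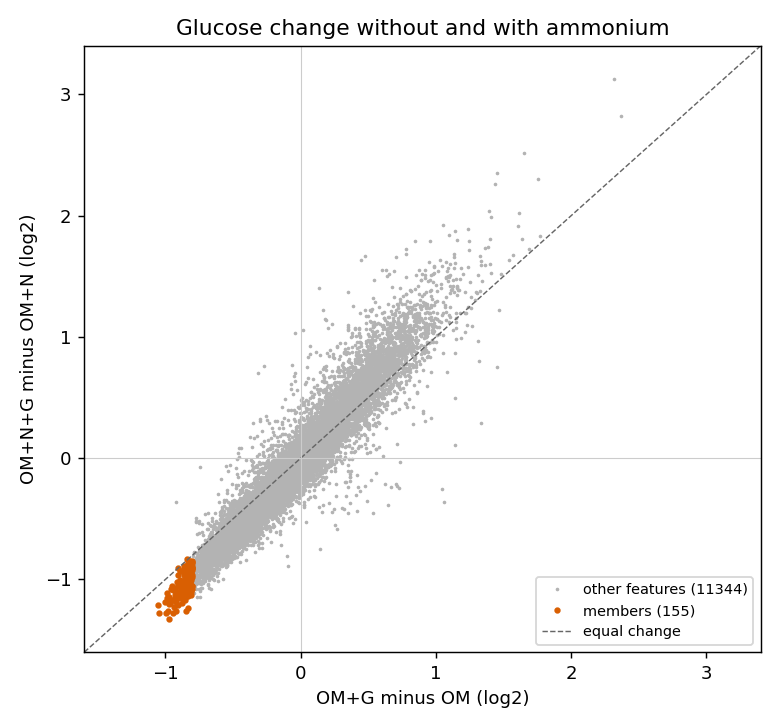
Difference between OM+G and OM (horizontal axis, log2) and between OM+N+G and OM+N (vertical axis, log2) for the 155 members (orange) and the 11344 other features with a mean of at least 6 (grey). The members lie at the low end of a continuous cloud, between -1.06 and -0.80 on the horizontal axis, and all but 1 of them lie below the dashed line of equal change.

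The largest differences belonged to 4 members. paxillus_6517 had 9.17, 9.11 and 9.20 in OM+N+G, 9.22, 9.23 and 9.25 in OM+G, 10.48, 10.30 and 10.31 in OM+N, and 10.30, 10.26 and 10.31 in OM. It had the largest fall without ammonium, at -1.06 (moderated SE 0.06), and one of -1.21 with ammonium. All 6 glucose arrays lay close together and below all 6 arrays without glucose. paxillus_4689 had 11.85, 11.82 and 11.60 in OM+N+G, 11.99, 11.91 and 11.78 in OM+G, 13.20, 12.96 and 12.94 in OM+N, and 13.10, 12.72 and 13.00 in OM. Its differences were -1.045 without ammonium and -1.27 with it (SE 0.11), and its OM replicate 2 stood below the other arrays without glucose.

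With ammonium, paxillus_12663 showed the largest difference of all members. Its levels were 10.34, 10.30 and 9.90 in OM+N+G, 10.40, 10.48 and 10.41 in OM+G, 11.61, 11.52 and 11.39 in OM+N, and 11.41, 11.31 and 11.48 in OM. The difference with ammonium was -1.32 (SE 0.10), a 2.51-fold lower value, and replicate 3 of OM+N+G was its lowest array. paxillus_12498 had 12.51, 12.42 and 12.34 in OM+N+G, 12.61, 12.49 and 12.49 in OM+G, 13.77, 13.60 and 13.73 in OM+N, and 13.51, 13.27 and 13.65 in OM. Its differences were -1.28 with ammonium and -0.94 without it (SE 0.09), and no array with glucose came near one without.

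**Figure D2:**
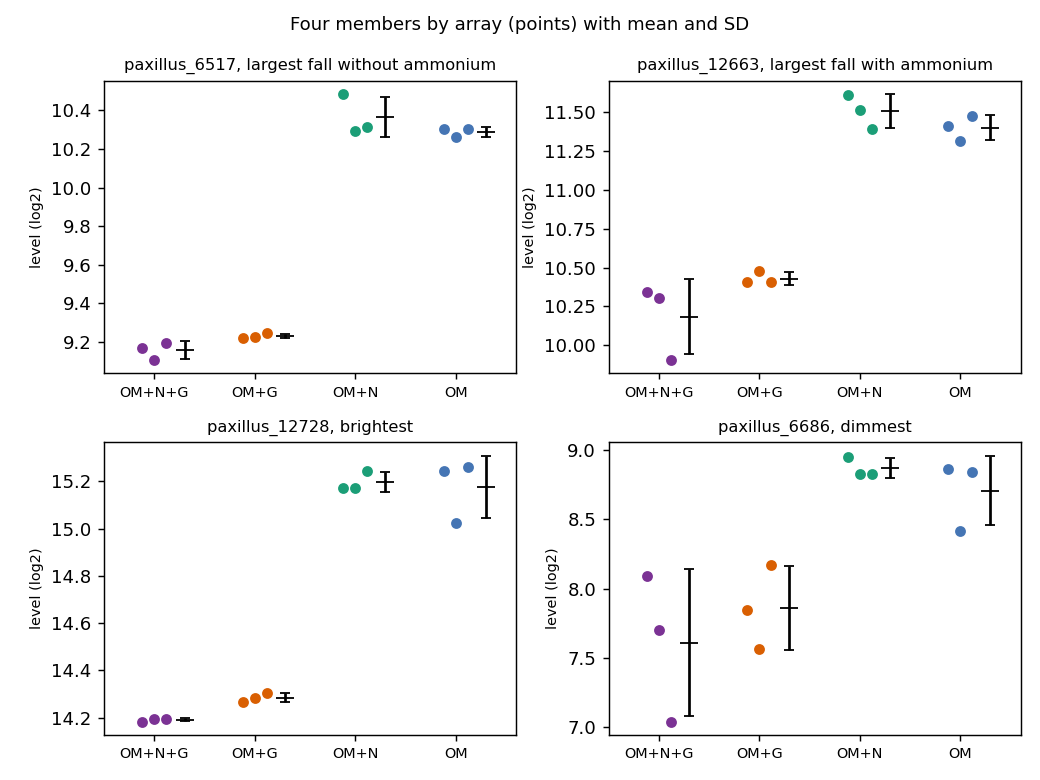
Levels (log2) of 4 members in each array (points, replicates 1 to 3 from left to right in each group) with the group mean and SD (bars, n = 3). In paxillus_6517 and paxillus_12728 the arrays with glucose lie close together below the others. In paxillus_12663 replicate 3 of OM+N+G stands below the other glucose arrays, and the dim paxillus_6686 ranges from 7.04 to 8.17 with glucose.

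Because the same arrays chose the members, features were also chosen anew at 1 ammonium level and tested on the arrays of the other. Features were first chosen on the 6 arrays without ammonium, by a value at least 0.8 lower in OM+G than in OM and a mean of at least 6 over those arrays, and were then tested with limma on the 6 arrays with ammonium alone. Of the 156 features so chosen, 155 were called lower in OM+N+G than in OM+N (adjusted p under 0.05 over all features), against 39.8% of all 12214 features. Their median difference was -1.04, and 155 of them reached -0.8 again. The exception was paxillus_13506, a dim feature with 7.02, 6.40 and 7.95 in OM+N+G, 7.63, 6.94 and 5.98 in OM+G, 8.03, 7.02 and 7.40 in OM+N, and 7.72, 8.25 and 7.36 in OM. Its groups overlapped at the ammonium level that was tested (limma adjusted p = 0.408). The 155 features that were called are the members. Their rule includes the fall with ammonium, so this count is no separate support for the group.

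In the opposite direction, 614 features were chosen on the arrays with ammonium and tested on those without. Of these, 612 were called lower in OM+G than in OM by limma, against 35.6% of all features. Their median difference was -0.73, and 155 of them (25.2%) reached -0.8. The other 459 features with a strong fall in the presence of ammonium were thus mostly lower without ammonium too, but by less than the threshold. Both tests share the slide and its layout, and the values of all arrays are taken to come from 1 RMA run, so the arrays are not fully separate. The number chosen without ammonium moved with the OM arrays used. Without OM replicate 2, 332 features were chosen and 332 called. Without OM replicate 1 or 3, 105 and 89 were chosen and 104 and 88 called.

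Choosing features by the whole rule on 2 replicates of each group and reading the remaining replicate gave the same direction in every feature. With replicate 1 held out, 123 features were chosen, and in the held-out arrays all 123 were lower with glucose at both ammonium levels, with medians of -0.88 for OM+G minus OM and -1.08 for OM+N+G minus OM+N. With replicate 3 held out, 72 features were chosen, and the held-out medians were -0.97 and -1.12. With replicate 2 held out, 302 features were chosen, all again lower in the held-out arrays. The held-out differences were smaller there, at -0.64 and -0.89, and 23 of the 302 reached -0.8 without ammonium. Over all features at or above 6 on average, the held-out medians lay between -0.10 and -0.02. Of those features, 52.3% to 54.4% were lower in OM+G than in OM in the held-out arrays. Between OM+N+G and OM+N the shares were 53.9% to 56.2%. Members made up 114 of the 123 chosen features, 153 of the 302 and 65 of the 72, and the held-out arrays had helped to choose the members. The held-out arrays also share the slide and its layout, so the same direction is no separate support for the group or for an effect of glucose.

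Arrays of the same group did not all stand at the same level, and the members moved together in this. In OM replicate 2 all 155 members lay below their own OM mean, by a median of 0.155, whereas 57.8% of the other features did. In OM replicates 1 and 3, 17 and 7 members (11.0% and 4.52%) lay below their OM mean, against 46.9% and 44.0% of the other features. In OM+N replicate 1, 146 members lay above their OM+N mean, by a median of 0.08, and in OM+N replicates 2 and 3, 18 and 45 did. The shares of members below the mean in OM+N replicates 1, 2 and 3 were 5.81%, 88.4% and 71.0%. For the other features they were 36.2%, 59.9% and 54.7%, so these also leaned the same way, by less. The arrays with glucose deviated less than the OM arrays and OM+N replicate 1, but not less than all arrays without glucose. In OM+N+G replicate 3, 124 members (80.0%) lay below their mean, by a median of 0.06, as in OM+N replicate 2, against 54.4% of the other features. In OM+G replicate 3, 107 members (69.0%) did, against 42.7%. The deviations of the OM arrays enter the OM mean that the rule used and so shaped the choice: 307 features met the rule without OM replicate 2, 104 without OM replicate 1 and 88 without OM replicate 3, against 155 with all arrays.

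**Figure D3:**
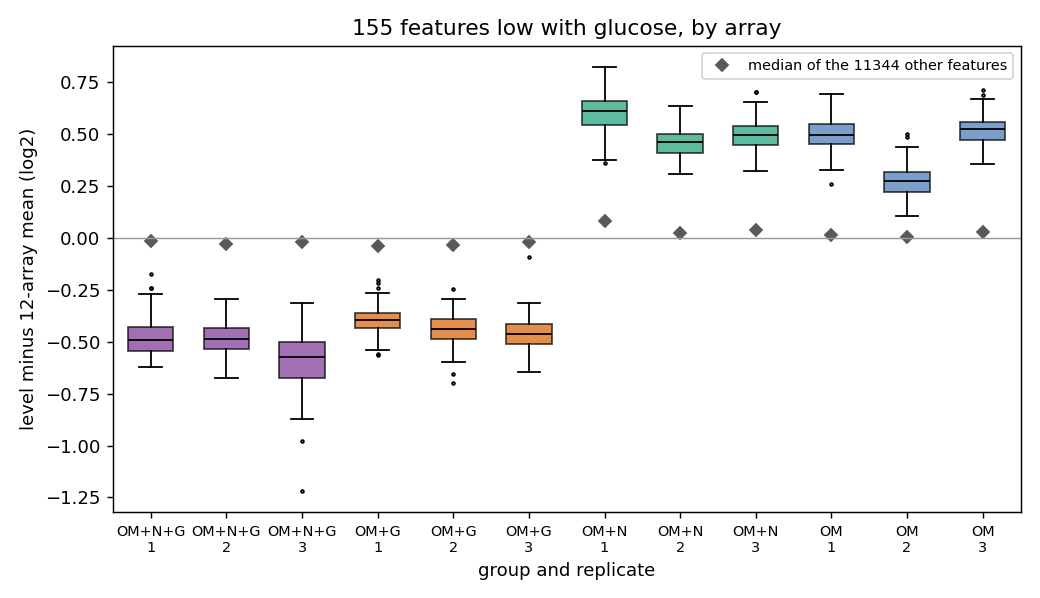
Level of the 155 members in each array minus the same member's mean over 12 arrays (log2; boxes show median and quartiles, whiskers reach 1.5 times the box, points lie beyond), with the median of the 11344 other features (diamonds). The member medians lie between -0.57 and -0.39 with glucose, at 0.27 in OM replicate 2, and between 0.46 and 0.61 in the other arrays without glucose.

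The within-group SD of the members was largest in OM. Its median over the members was 0.08 in OM+N+G, 0.06 in OM+G, 0.09 in OM+N and 0.14 with OM alone. For the other features the medians were 0.07, 0.06, 0.08 and 0.10 in the same order of groups. The steadiest members were paxillus_6517 and paxillus_6700. paxillus_6700 had 11.00, 11.02 and 11.00 in OM+N+G, 11.08, 11.06 and 11.07 in OM+G, 12.19, 12.04 and 12.06 in OM+N, and 12.00, 11.92 and 12.12 in OM. The glucose arrays of each group were nearly equal, and the arrays without glucose spread more widely.

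The most variable member was the dimmest, paxillus_6686, with 8.09, 7.70 and 7.04 in OM+N+G, 7.85, 7.56 and 8.17 in OM+G, 8.95, 8.83 and 8.83 in OM+N, and 8.87, 8.42 and 8.84 in OM. Its OM+N+G arrays were far apart, but none of its glucose arrays reached the lowest array without glucose. Next came paxillus_11354, with 9.31, 9.20 and 8.88 in OM+N+G, 9.20, 8.97 and 9.30 in OM+G, 10.27, 10.11 and 10.14 in OM+N, and 10.15, 9.78 and 10.19 in OM. Here too OM replicate 2 was the lowest of the arrays without glucose.

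The members were also compared between the ammonium levels, which differ in their position on the slide too. Without glucose, 0 of 155 members were called different between OM+N and OM by limma (fit to all 12 arrays, adjusted p under 0.05 over all features), against 0.336% of all 12214 features. At that share fewer than 1 call would fall on any 155 features, so the count of 0 does not set the members apart. An unadjusted p under 0.05 was found for 10 members (6.45%), all higher in OM+N, against 15.2% of all features. The rule set no condition on this difference, but the means of OM and OM+N enter it through the falls, so the count is not fully independent of the choice. A p that misses the threshold does not show that the groups are equal.

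The largest difference upward was that of paxillus_10617, with 14.07, 13.96 and 14.06 in OM+N, against 13.84, 13.56 and 14.01 in OM. The difference was 0.23 (SE 0.10, limma adjusted p = 0.302), and OM replicate 3 lay within the range of OM+N. paxillus_12498 followed with 0.22 (SE 0.09, limma adjusted p = 0.287). The largest differences downward were -0.06 for paxillus_6670 (limma adjusted p = 0.765, and -0.15 to 0.02 when single arrays were left out) and -0.04 for paxillus_534 (limma adjusted p = 0.817). paxillus_6670 had 12.05, 12.07 and 12.16 in OM+N, against 12.31, 11.97 and 12.18 in OM, and paxillus_534 had 10.56, 10.47 and 10.60 in OM+N, against 10.66, 10.46 and 10.64 in OM. In both the groups overlapped.

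Over the group, 144 members were higher in OM+N than in OM, with a median of 0.09. Of the 11344 other features, 6978 were higher too, and their median was 0.03. The small offset of the members moved with single arrays. Without OM replicate 2 the median was 0.01 and 91 members were higher. When OM+N replicate 1 was left out as well, the median was -0.03 and 48 were higher. In the presence of glucose, 139 members (89.7%) were lower in OM+N+G than in OM+G, with a median of -0.08 and a range of -0.25 to 0.10. Of the other features 51.9% were lower, with a median of -0.005. The members' difference was held under 0.4 by the rule and is given without a test.

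The fall was larger with ammonium than without it in 154 members. The median of the difference between both falls was -0.17, and -0.02 in the other features, which hold rises as well as falls. The exception among the members was paxillus_12170, with -0.83 with ammonium and -0.84 without it. Larger glucose steps with ammonium were not particular to the members. Among features with a mean of at least 6, 614 fell by at least 0.8 with ammonium and 156 without it. Rises of at least 0.8 were found in 912 features with ammonium and in 385 without it. The members' difference between both falls again moved with the arrays named above. Its median was -0.09 without OM replicate 2 and -0.05 without both that array and OM+N replicate 1. Both falls chose the members, so no test is given. Across the 155 members the size of the fall without ammonium and that with ammonium correlated with Pearson's r of 0.66. The values share the slide, the RMA run and each feature's probes, and the choice cut off the upper end of the range without ammonium. The limit on the fall with ammonium kept out only paxillus_13506.

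The members covered a wide range of brightness. The brightest, paxillus_12728, had 14.18, 14.19 and 14.19 in OM+N+G, 14.27, 14.28 and 14.31 in OM+G, 15.17, 15.17 and 15.24 in OM+N, and 15.24, 15.03 and 15.26 in OM. Its differences were -1.01 with ammonium and -0.89 without it (SE 0.07). paxillus_6071 came next, with 13.86, 13.996 and 14.04 in OM+N+G, 14.02, 13.94 and 14.02 in OM+G, 14.92, 14.80 and 14.86 in OM+N, and 14.80, 14.61 and 15.00 in OM. Even in these bright features the glucose arrays stayed apart from the others.

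At the dim end, paxillus_13241 lay next to paxillus_6686. The levels of paxillus_13241 were 8.72, 8.69 and 8.63 in OM+N+G, 8.73, 8.70 and 8.85 in OM+G, 9.80, 9.66 and 9.71 in OM+N, and 9.63, 9.54 and 9.67 in OM. Its differences of -1.05 with ammonium and -0.85 without it (SE 0.06) on the deposited scale moved with the scaling: after cyclic loess they were -0.71 and -0.54, and after quantile normalization -0.96 and -0.69, and paxillus_13241 met the rule under neither.

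Divided by mean level into 4 equal classes of the 11499 features, the members were most frequent at both ends. The brightest 25% held 65 of the 155 members (41.9%), the next 21, the one below 27, and the dimmest 25% held 42 (27.1%). Without OM replicate 1, 2 or 3 the brightest class held 41, 102 and 32 of the features that met the rule, and the dimmest 27, 93 and 25. The threshold of the rule leaves the falls little room to differ between these classes on the deposited scale. After cyclic loess the median of the same members for OM+G minus OM was -0.65 in the dimmest class, -0.78 and -0.86 in the next, and -0.98 in the brightest. Which features met the rule at the dim end depended on how the arrays were brought to one scale. After cyclic loess, which removes trends with brightness by construction, 159 features met the rule, 93 of them members, and 123 of the 159 (77.4%) were in the brightest 25% and 0 in the dimmest. None of the 42 dim members met the rule then, but all 42 were still lower in OM+G than in OM, with a median of -0.65, and with a median of -0.78 for OM+N+G minus OM+N. After quantile normalization of the deposited values 167 features met the rule, 104 of them members, and 3 of the 42 dim members. All 65 members of the brightest 25% met it under both. After scaling to the 75th percentile 280 features met the rule, all 155 members among them. The rule was met under all 4 scales by 93 members (60.0%).

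**Figure D4:**
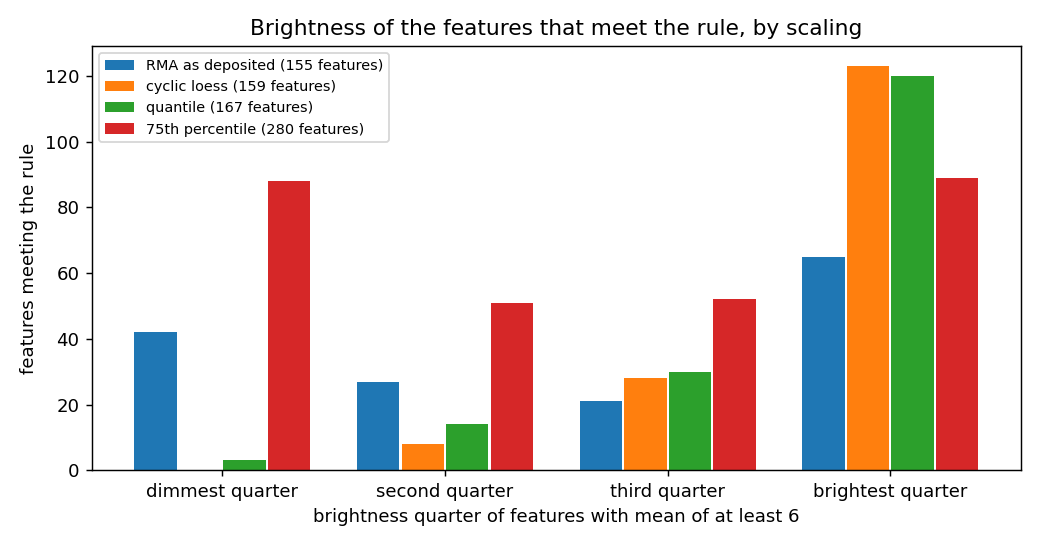
Number of features that met the rule (bars) in each of 4 equal brightness classes of the 11499 features, for the deposited RMA values and after cyclic loess, quantile normalization or scaling to the 75th percentile. With the deposited values 42 were in the dimmest class and 65 in the brightest, and after cyclic loess 0 and 123.

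Of the members with the values above, paxillus_4689, paxillus_12498, paxillus_12728, paxillus_6071, paxillus_10617 and paxillus_6700 met the rule under all scales. After cyclic loess paxillus_6517 had differences of -0.78 without ammonium and -0.89 with it, and paxillus_12663 had -0.79 and -1.09. With the same scale paxillus_12728 had -1.12 and -1.46, so the order of the falls changed with the scale, while their direction did not.

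The members were not spread evenly over the feature numbers. Of the 155 members, 81 (52.3%) were numbered from 11001 to 13000, a range that held 1807 (15.7%) of the 11499 features. Another 28 (18.1%) were numbered from 6001 to 7000, with 8.61% of the features, and 3 (1.94%) from 7001 to 10000, with 26.1%. The number in 11001 to 13000 moved with the OM arrays, to 57 without OM replicate 1, 141 without OM replicate 2 and 46 without OM replicate 3, while its share of the features that met the rule was 54.8%, 45.9% and 52.3%. Of the stretches of 500 numbers, 12001 to 12500 held the most members, at 30. They made up 6% of its features with a mean of at least 6, against 1.35% over the whole numbering. In 12501 to 13000 there were 25 members, a higher share of 8.14%. These ranges were set after the numbers of the members had been seen, and no test is given. The files do not say what the numbers stand for.

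The other features numbered 11001 to 13000 leaned the same way. Features from 11001 to 13000 that were not members had a median of -0.35 for OM+G minus OM and of -0.43 for OM+N+G minus OM+N, and 82.3% of them were lower in OM+G than in OM. From 7001 to 10000 the medians were 0.10 and 0.11, and over the whole numbering -0.03 and -0.06. In the range from 6001 to 7000 they were -0.09 and -0.14. In its upper part, 6501 to 7000, which held 18 members, they were -0.04 and -0.10, near those of the whole numbering. The other features of these ranges also differed in level: those from 11001 to 13000 had a median level of 11.49, against 11.92 from 7001 to 10000. The members numbered 11001 to 13000 were brighter, with a median level of 12.10, the same as that of all members. Dim features leaned downward with glucose over the whole array in the deposited values, with a median of -0.19 in the dimmest 25% and 0.16 in the brightest. After cyclic loess 75 of the 159 features that met the rule (47.2%) were still numbered 11001 to 13000, and after quantile normalization 77 of 167 (46.1%).

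**Figure D5:**
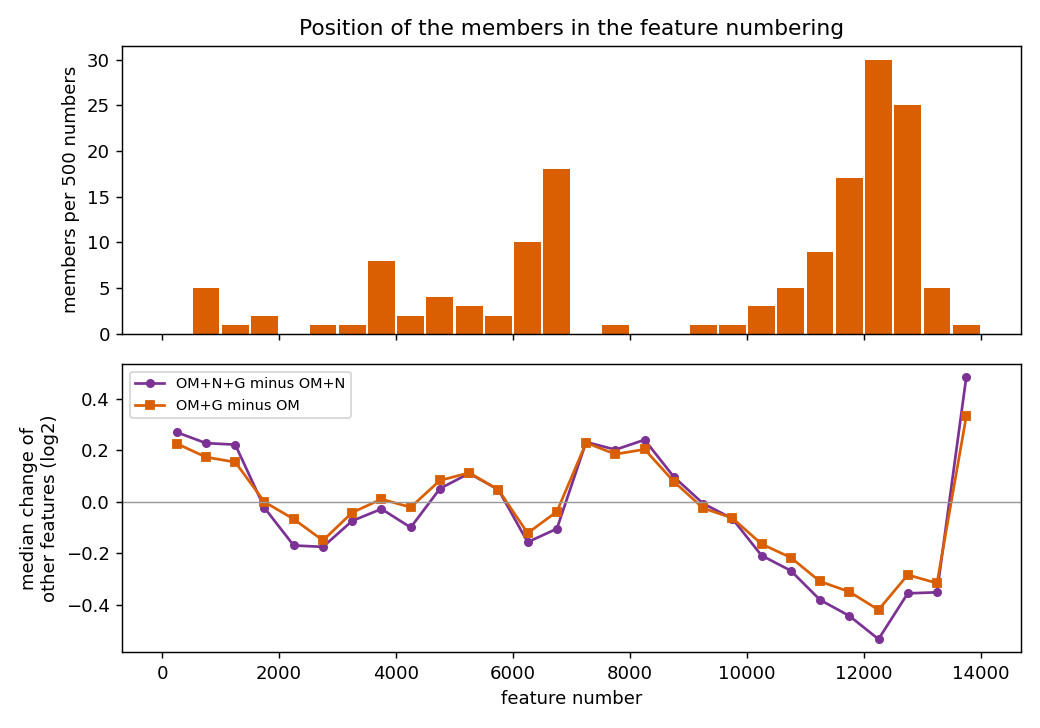
Number of members per 500 feature numbers (upper plot) and the median difference of the other features in the same stretch (lower plot, log2, circles OM+N+G minus OM+N, squares OM+G minus OM). The members gather at 6001 to 7000 and at 11001 to 13000, and the median of the other features falls to -0.42 for OM+G minus OM at 12001 to 12500.

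Of the 155 members, 16 were direct neighbours of another member. They formed 8 pairs with adjacent numbers, and no run was longer than 2. How many pairs other sets of 155 features would hold was not counted, so the number is given as a description. In the pair paxillus_3620 and paxillus_3621, the first had 13.06, 13.14 and 13.08 in OM+N+G, 13.13, 13.13 and 13.06 in OM+G, 14.12, 14.06 and 14.06 in OM+N, and 13.98, 13.79 and 13.98 in OM. The second had 13.05, 13.07 and 12.96 in OM+N+G, 13.07, 13.12 and 13.13 in OM+G, 14.10, 13.96 and 14.01 in OM+N, and 14.03, 13.78 and 14.08 in OM. The differences of paxillus_3620 were -0.81 without ammonium and -0.98 with it, and those of paxillus_3621 -0.86 and -1.0006.

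Levels are not compared between neighbours, since the signal depends on each feature's own probes. paxillus_3995 had group means of 12.57 in OM+N+G, 12.63 in OM+G, 13.67 in OM+N and 13.45 with OM alone, and paxillus_3996 had 11.64, 11.77, 12.78 and 12.74 in the same order. paxillus_6685 averaged 12.03 in OM+N+G, 12.03 in OM+G, 12.91 in OM+N and 12.87 with OM alone. The differences without and with ammonium were -0.82 and -1.10 for paxillus_3995, -0.97 and -1.14 for paxillus_3996, -0.84 and -0.88 for paxillus_6685, and -0.85 and -1.26 for paxillus_6686. The 262 direct neighbours of members that were not members themselves had a median of -0.33 for OM+G minus OM, and 204 of them (77.9%) were lower in OM+G. All other features numbered 11001 to 13000, where 81 members lie, had a median of -0.35, with 82.3% lower. Over the whole numbering the values were -0.03 and 52.9%. The neighbours' values were near those of 11001 to 13000, but the neighbours flank members of all ranges. From 1 to 6000, with 29 members, the other features had a median of 0.06, with 44.6% lower. From 6001 to 7000, with 28 members, they had -0.09 and 58.0%. The neighbours were not divided by range, so whether they differ from the features around them was not tested.

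Outside the group many features followed the same course over the 12 arrays with smaller steps. The mean profile of the members correlated with single members with r of at least 0.97 in 154 cases, the exception being paxillus_6686 with 0.92. It also correlated with r of at least 0.97 with 1465 of the 11344 other features. The features most like it were paxillus_12166 (r of 0.997, n = 12 arrays), with differences of -0.76 for OM+G minus OM and -0.93 for OM+N+G minus OM+N, and paxillus_4709 (r of 0.997), with -0.80 and -1.0001. Since every pair of these profiles shares the same arrays and the same step between subarrays 6 and 7, the correlations are given without a test.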

How the data were processed

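Total RNA of 12 mycelium samples was measured on 1 single-colour NimbleGen slide with 12 subarrays. The deposited log2 values, 1 per feature and array, were made by the authors with RMA per the submitters' processing notes. The software behind it is not given here. That the values are log2 was read from their range (array medians 11.74 to 11.78). The per-array files and the series table held identical values. The random-sequence control was left out. The column named as an error of expression was not used.

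Groups came from the sample titles. Linear models with moderated variances (limma version 3.58.1, R version 4.3.3) were fitted over all 12214 features, to 12 arrays (8 residual and 4.72 prior degrees of freedom) or to the 6 arrays named, with Benjamini-Hochberg adjustment over all features and a threshold of 0.05. The scripts were tested on simulated data. Other figures are group means, differences and SDs (n = 3), computed in Python version 3.11.15. Each p-value rests on culture and subarray variation combined, and the number of arrays limits precision. Alternatives were cyclic loess, the 75th percentile, quantile normalization, a filter on dim features, trended robust moderation, the replicate number as a block, other thresholds, and leaving out arrays.

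The members, lists and tests were chosen with earlier results of these data known. Named features were the pair of members with the largest fall in each glucose comparison, the brightest and dimmest pairs, the pairs with the largest rise and fall in OM+N minus OM, the pairs with the largest and smallest within-group SD, the first 3 pairs of adjacent numbers, the features next to each threshold, and the pair of other features most like the mean profile. The ranges of feature numbers, the brightness classes and the held-out replicates were chosen after the values had been seen. No sequences were used here.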

Additional observations from a re-analysis of the deposited data

How the results depend on the processing

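The number of features meeting the rule was 155 and depended on its threshold and on the OM arrays. With a fall limit of -0.7 it was 393 and with -0.9 it was 37. After scaling to the 75th percentile it was 280, and with OM replicate 2 and OM+N replicate 1 both left out 284. Leaving out single arrays gave 88 (without OM replicate 3) to 307 (without OM replicate 2, all 155 members among them), and 104 without OM replicate 1. Limits of 0.3 or 0.5 for ammonium, or none, left it at 155, and the series table gave the same 155. The 155 features chosen without ammonium and called with it became 288 after scaling to the 75th percentile, 332 with both arrays left out, and 405 and 37 with choice limits of -0.7 and -0.9, with 88 to 332 when single arrays were left out. Of the 118 that were tested without the dimmest 25% of features, 118 were called. The 612 features of the opposite direction became 1028 and 314 with choice limits of -0.7 and -0.9, 476 to 705 when single arrays were left out, and 460 of 462 tested without the dimmest 25%. In all these settings at most 4 chosen and tested features were not called. The count of members called for ammonium without glucose was 0 under all its alternatives, with 0 to 25 members at an unadjusted p under 0.05. With the members fixed, leaving out single arrays gave medians of -0.93 to -0.81 for OM+G minus OM, -1.07 to -0.99 for OM+N+G minus OM+N, 0.01 to 0.13 for OM+N minus OM, -0.10 to -0.06 for OM+N+G minus OM+G and -0.22 to -0.09 for the difference of both falls. With both arrays left out, the medians were -0.932 for OM+G minus OM, -0.0317 for OM+N minus OM and -0.0534 for the difference of both falls. The replicate number as a replicate block left 155 and 612 features called. Same-numbered arrays deviated together with r over 0.1 in 3 of 12 pairs, so the numbers were not taken as pairs. Leaving out single arrays moved the number in the brightest 25% of features between 32 and 102, in the dimmest between 25 and 93, and in the numbers 11001 to 13000 between 46 and 141.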
